A study of Homo sapiens with 16 samples.

Results

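Nucleotide synthesis and nucleoside transport were followed through 9 genes: RRM1, RRM2, TYMS, TK1, DUT, DCTPP1, CAD, SLC29A1 and SLC29A2. Their rows in the count table were those whose Ensembl identifier maps to one of these symbols, a matching step that did not use the values. The 9 genes themselves were chosen with earlier results of these data known. Each symbol matched 1 of the 58787 rows, and all 9 passed the filter on low counts, which left 14193 genes for testing. The study knocked down TPX2, a spindle assembly factor and activator of Aurora kinase A, in IMR32, an established human neuroblastoma line. It used 3 different siRNAs against TPX2 (si45, si46 and si47) and a non-targeting control siRNA (siNTC), each with 4 libraries that the series design calls biological replicates. The table's column names give 48 h for every library, and the labels name no other agent or allele. All groups are therefore the same cell line, transfected with an siRNA, and the knockdown leaves some TPX2 RNA in place.

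DNA synthesis needs a balanced supply of the deoxynucleotides. Ribonucleotide reductase makes them by reducing ribonucleoside diphosphates, thymidylate synthase and thymidine kinase supply the thymidine nucleotides, and dUTPase keeps uracil out of DNA. Several of these genes are known as E2F targets whose RNA rises around S phase, and the ribonucleotide reductase subunit RRM2B is a known p53 target. The pyrimidine ring itself is built from small precursors by the CAD enzyme, while equilibrative nucleoside transporters let nucleosides cross the plasma membrane for reuse by salvage.

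Libraries were made from the 3′ ends of transcripts, so each gene was read near its polyadenylation site, and held between 5318159 and 7864343 counts, with a median of 5966582. Levels are given below as CPM, a gene's counts scaled to a fixed library total after TMM correction, as the mean ± SD of the 4 libraries of a group. TPX2 itself was at 327 ± 27.1 CPM with siNTC, 91.6 ± 19.8 with si45, 81.7 ± 14.3 with si46 and 71.5 ± 3.37 with si47. Every knockdown library lay below every control library (two-sided exact permutation test, p = 0.0286 for each siRNA, the smallest that 4 against 4 libraries can give). All 9 sympathetic neuroblast markers examined (HAND2, GATA3, DBH and others) were present, with a summed level of 4120 to 4359 CPM in controls. Their sums ran from 4149 to 5192 with si45, from 4591 to 5329 with si46 and from 4744 to 5606 with si47. Over the 3 siRNAs 8 of the 9 markers had a log2 fold change above 0, and 1, DBH, had one below 0. HAND2 rose by 0.23 (adjusted p = 0.0193 by edgeR) and was the 1 marker called higher. DBH fell by 0.56 (adjusted p = 1.27e-05 by edgeR), to 60.9%, 72.6% and 71.2% of the control mean with si45, si46 and si47. Summed immune, endothelial, epithelial and glial markers stayed at or below 9.65 CPM in every library, and CD3E, LYZ and SOX10 had 0 counts in all 16. The 7 mesenchymal markers summed to between 258 and 324 CPM over the 16 libraries, most of it TWIST1, at 244 ± 12.9 CPM in controls.

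Of the 9 genes, 5 fell on average over the 3 siRNAs. These were SLC29A2, TK1, DUT, RRM2 and TYMS, at an adjusted p under 0.05 by edgeR's quasi-likelihood test. None rose, and RRM1, SLC29A1, DCTPP1 and CAD did not pass. Among all genes tested in that comparison 7.14% were called, with 3.53% of all genes lower and 3.61% higher. The median log2 fold change of the 9 was -0.26, against -0.0011 over all genes tested. With bulk RNA, fewer cells in a cell cycle phase and less RNA of a gene per cell cannot be told apart.

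The number of calls differed between the siRNAs. With si45, 1.34% of all genes were called and 0.324% were lower, and SLC29A2 was the 1 gene of the 9 that fell. In that group the median log2 fold change of the 9 was -0.13. With si46, 3.4% of all genes were called and 1.25% were lower. SLC29A2 and DUT fell, and the median of the 9 was -0.29. With si47, 9.74% of all genes were called and 4.83% were lower. Here 6 of the 9 fell, SLC29A2, TK1, RRM2, DUT, TYMS and RRM1, with a median of -0.37. All 4 libraries of an siRNA lay below all controls for 1 of the 9 genes with si45, 4 with si46 and 5 with si47. Among all genes tested this held for 2.95%, 4.67% and 6.98%. Summed over the 9 genes, the share of a library's counts was 0.148% ± 0.00471 with siNTC, 0.134% ± 0.00689 with si45, 0.124% ± 0.00525 with si46 and 0.111% ± 0.00756 with si47 (SD, n = 4).

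**Figure D1:**
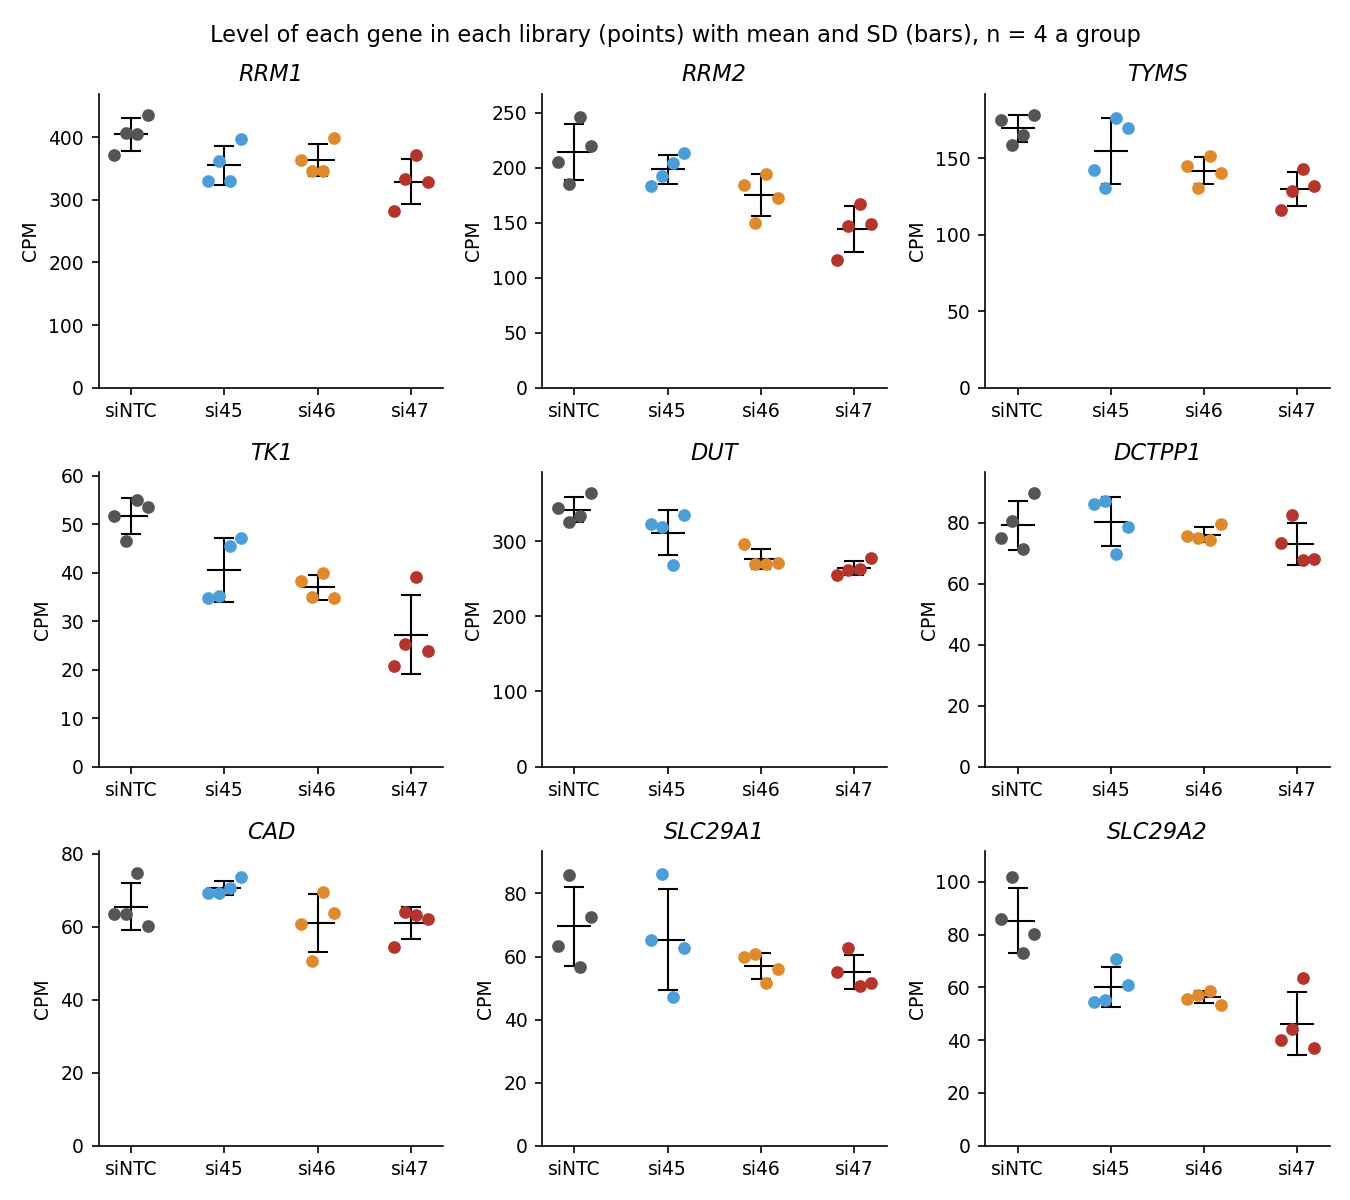
Level of each of the 9 genes in every library (y axis, CPM, starting at 0) by siRNA group (x axis), with 1 point a library and bars for the mean and SD of the 4 libraries. All 12 knockdown libraries lie below the 4 controls for SLC29A2 only. For every other gene some knockdown library reaches the control range. For RRM1, CAD, DCTPP1 and SLC29A1 every siRNA group overlaps the controls.

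Ribonucleotide reductase is built from a large catalytic subunit, encoded by RRM1 (chr11:4094707-4138876, plus strand, GRCh38), and a small radical-carrying subunit. The small subunit of dividing cells is encoded by RRM2 (chr2:10120698-10131419, plus strand). RRM2 stood at 205, 185, 246 and 220 CPM in the 4 control libraries. The si45 libraries held 184, 193, 204 and 213 CPM, inside or just below that range. With si46 RRM2 was at 184, 150, 194 and 172 CPM, and with si47 at 116, 147, 167 and 149 CPM. Thus only the si47 group lay wholly below the controls, and its mean of 145 ± 21.1 CPM was 67.5% of the control mean of 214 ± 25.5. In edgeR's test RRM2 fell by 0.57 on the log2 scale with si47 (SE 0.103, adjusted p = 2.68e-04). The log2 fold change was -0.29 with si46 (adjusted p = 0.124) and -0.11 with si45 (adjusted p = 0.755), neither past the threshold in edgeR's test. A fit with the replicate number as a block called RRM2 with si46 (adjusted p = 0.0156 by edgeR) and not with si45 (adjusted p = 0.588 by edgeR). Averaged over the siRNAs RRM2 fell by 0.32 (SE 0.0817, adjusted p = 0.0114 by edgeR). That call was lost without siNTC replicate 3 (adjusted p = 0.107 by edgeR) and without siNTC replicate 4 (adjusted p = 0.0525 by edgeR).

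For RRM1 the control libraries held 371, 407, 405 and 435 CPM, and si47 libraries 283, 333, 371 and 329 CPM. The highest si47 library, replicate 3, just overlapped the lowest control. RRM1 fell by 0.30 on the log2 scale with si47 (SE 0.0876, adjusted p = 0.0243 by edgeR). This call was lost when any of siNTC replicates 2, 3 and 4 or si47 replicates 1, 2 and 4 was left out, with adjusted p-values from 0.0501 to 0.137 by edgeR. Means of 355 ± 31.4 CPM with si45 and 363 ± 25.2 with si46 stood against 404 ± 26.5 in controls. Over the 3 siRNAs the log2 fold change was -0.21 (SE 0.0706, adjusted p = 0.0578 by edgeR), so RRM1 missed the threshold there. It passed with DESeq2 (adjusted p = 0.0421), and with edgeR without si45 replicate 4, si46 replicate 4 or si47 replicate 3 (adjusted p = 0.0395, 0.0459 and 0.0243). RRM1 also passed there with the replicate number as a block (adjusted p = 0.00726 by edgeR).

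The alternative small subunit, encoded by RRM2B, went the other way. RRM2B is not one of the 9 genes but substitutes for RRM2 in the same enzyme. Control libraries had 5.93, 6.26, 5.86 and 9.71 CPM. The si45 libraries had 15.8, 11.5, 10.4 and 15.1 CPM, si46 libraries 14.3, 14.7, 14.0 and 20.3 CPM, and si47 libraries 24.7, 20.9, 18.1 and 17.4 CPM. All 12 knockdown libraries were above all controls. RRM2B rose by a log2 fold change of 1.22 on average (SE 0.185, adjusted p = 2.87e-05 by edgeR), and by 0.93, 1.18 and 1.55 with si45, si46 and si47 (adjusted p = 0.0169, 6.45e-04 and 4.84e-06 by edgeR).

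Ratios of counts within a library set both genes side by side. The number of RRM2 counts per RRM2B count was 32.2 ± 8.13 in controls, 15.5 ± 3.45 with si45, 11.4 ± 2.49 with si46 and 7.36 ± 1.99 with si47 (SD, n = 4). The lowest control ratio, 22.6, was above the highest knockdown ratio, 19.6. The number of RRM2 counts per RRM1 count was 0.531 ± 0.0651 in controls, 0.561 ± 0.0389 with si45, 0.484 ± 0.0630 with si46 and 0.438 ± 0.0192 with si47. These ratios compare libraries and are not a subunit stoichiometry, since the read sites of 2 genes may be captured unequally.

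**Figure D2:**
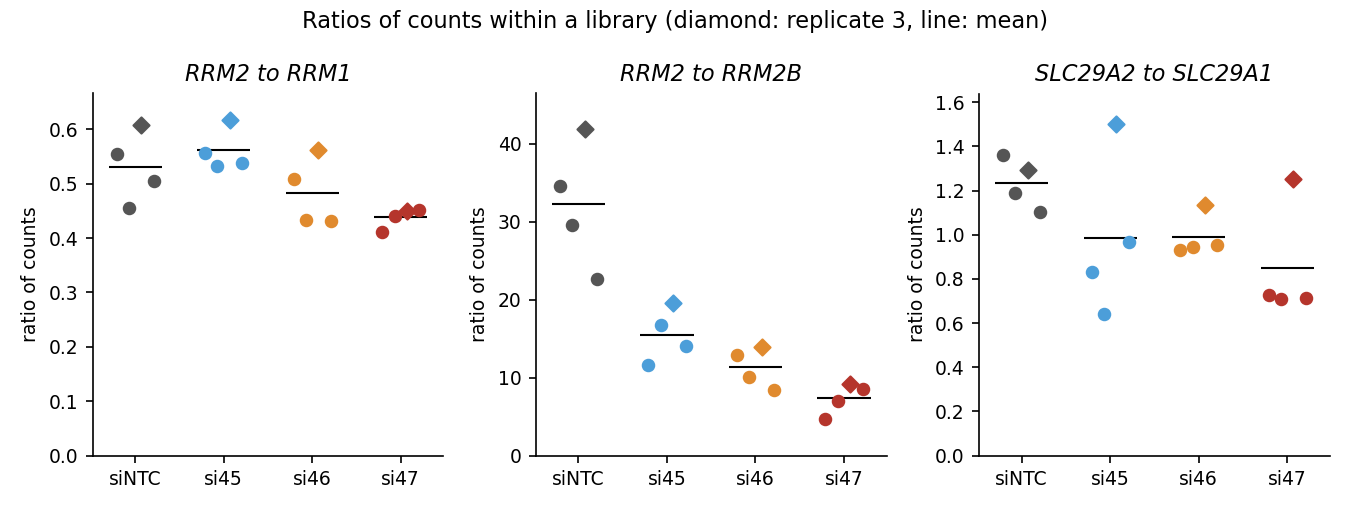
Ratio of counts of 2 genes within each library (y axis, starting at 0) by siRNA group (x axis), with 1 point a library, a diamond for replicate 3 and a line at the mean. RRM2 to RRM2B separates the controls (22.6 and above) from all knockdown libraries (19.6 and below), and SLC29A2 to SLC29A1 was highest in replicate 3 of each siRNA against TPX2.

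Thymidylate reaches the cell by 2 routes. TYMS (chr18:657604-673578, plus strand) encodes thymidylate synthase, which methylates dUMP and is the target of fluorouracil, and TK1 (chr17:78174075-78187233, minus strand) encodes the cytosolic thymidine kinase of the salvage route. TK1 was at 51.6, 46.5, 55.0 and 53.6 CPM in controls. With si45 it was at 34.8, 35.2, 45.4 and 47.1 CPM, with si46 at 38.4, 34.9, 39.9 and 34.8 CPM, and with si47 at 20.7, 25.2, 39.1 and 23.9 CPM. All knockdown libraries but si45 replicate 4 were below every control, and si47 replicate 3 lay apart from the other si47 libraries. Group means were 78.6%, 71.6% and 52.7% of the control mean of 51.7 ± 3.75 CPM with si45, si46 and si47. TK1 fell by 0.58 on the log2 scale over the 3 siRNAs (SE 0.117, adjusted p = 0.00119) and by 0.92 with si47 (SE 0.150, adjusted p = 6.98e-05) in edgeR's test. The log2 fold changes of -0.48 with si46 (adjusted p = 0.0642) and -0.35 with si45 (adjusted p = 0.326) did not pass edgeR's test. TK1 with si46 did pass with no count filter (adjusted p = 0.0237) and in a fit of only the 2 groups compared (adjusted p = 0.0138) in edgeR. A fit with the replicate number as a block called TK1 with si46 (adjusted p = 0.00776 by edgeR) and not with si45 (adjusted p = 0.0962 by edgeR).

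TYMS stood at 175, 159, 166 and 178 CPM in controls and at 142, 131, 176 and 170 CPM with si45. With si46 it was at 145, 131, 152 and 140 CPM, and with si47 at 116, 129, 143 and 132 CPM. The si46 and si47 groups were wholly below the controls, while si45 replicates 3 and 4 were inside the control range. TYMS fell by 0.38 on the log2 scale with si47 (SE 0.0947, adjusted p = 0.00689 by edgeR), from 170 ± 8.87 to 130 ± 11.1 CPM, or to 76.6% of the control mean. Over the siRNAs it fell by 0.26 (SE 0.0760, adjusted p = 0.0313 by edgeR). The averaged call was lost on leaving out siNTC replicates 1, 3 or 4, si45 replicates 1 or 2, si46 replicate 2 or si47 replicate 1, with adjusted p-values from 0.0507 to 0.126 by edgeR. TYMS and TK1 also varied together within groups: after subtracting group means, their log2 CPM correlated with r = 0.793 over the 16 libraries, the highest of the 36 pairs among the 9 genes. That correlation is a description over libraries that share their depth scaling.

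The nucleotide pool is cleaned by hydrolases that remove unwanted deoxynucleotides. DUT (chr15:48331011-48343373, plus strand) encodes dUTPase, which splits dUTP and yields the dUMP that thymidylate synthase uses. DUT was at 344, 325, 334 and 364 CPM in controls and at 323, 318, 268 and 335 CPM with si45. With si46 it was at 296, 269, 270 and 271 CPM, and with si47 at 255, 261, 262 and 278 CPM. The si46 and si47 groups did not overlap the controls, and si45 replicate 4 was the only knockdown library inside their range. DUT fell by 0.30 with si46 (SE 0.0808, adjusted p = 0.0274), by 0.37 with si47 (SE 0.0809, adjusted p = 0.00224) and by 0.27 over all siRNAs (SE 0.0650, adjusted p = 0.00715) on the log2 scale of edgeR. The si46 call was lost without siNTC replicate 1 or 4 or without si46 replicate 2, 3 or 4 (adjusted p from 0.0620 to 0.102 by edgeR). The averaged call was lost without siNTC replicate 4 (adjusted p = 0.0530 by edgeR).

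DCTPP1 (chr16:30423619-30430075, minus strand), which encodes a pyrophosphatase for dCTP and its modified forms, did not follow DUT. Its means were 79.2 ± 8.07 CPM in controls, 80.4 ± 8.14 with si45, 76.1 ± 2.36 with si46 and 72.9 ± 6.88 with si47. The log2 fold change over the siRNAs was -0.05, with a 95% interval from -0.22 to 0.12 (adjusted p = 0.789 by edgeR).

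CAD (chr2:27217390-27243943, plus strand) encodes the enzyme of the first 3 steps of pyrimidine synthesis and is a known MYC-family target. CAD was at 65.6 ± 6.42 CPM in controls, 70.7 ± 1.97 with si45, 61.1 ± 7.94 with si46 and 61.0 ± 4.36 with si47. Only 2 of 12 knockdown libraries were below every control. Its log2 fold change was -0.03 over the siRNAs, with a 95% interval from -0.21 to 0.15 (adjusted p = 0.888 by edgeR). Neither interval reaches the averaged log2 fold change of TYMS, -0.26, but the 95% interval of TYMS, from -0.41 to -0.10, overlaps both. No test compared the genes with each other.

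The transporter SLC29A2 (chr11:66362521-66372214, minus strand), known as ENT2, was the gene of the 9 with the lowest averaged log2 fold change. Controls held 86.1, 102, 73.0 and 80.1 CPM. The si45 libraries held 54.3, 55.3, 70.9 and 60.7 CPM, the si46 libraries 55.7, 57.3, 58.6 and 53.3 CPM, and the si47 libraries 40.2, 44.3, 63.5 and 36.9 CPM. All 12 knockdown libraries lay below all 4 controls, which held for no other of the 9 genes and for 1.03% of all genes tested. In replicate 3 the control was at its lowest and the si45, si46 and si47 libraries at their highest, so that number has the smallest gap. SLC29A2 fell by 0.66 on the log2 scale over the siRNAs (SE 0.104, adjusted p = 5.41e-05 by edgeR). With si47 it fell by 0.88 (SE 0.133, adjusted p = 2.68e-05), with si46 by 0.60 (SE 0.132, adjusted p = 0.00604) and with si45 by 0.50 (SE 0.131, adjusted p = 0.0436) in edgeR's test. Group means were 70.8%, 65.9% and 54.2% of the control mean with si45, si46 and si47. The si45 call was lost without siNTC replicate 1, 2 or 4 or si45 replicate 1, 2 or 4, with adjusted p-values from 0.0717 to 0.223 by edgeR. It was also lost where 10 counts were asked of every library (adjusted p = 0.0631 by edgeR).

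SLC29A1 (chr6:44219505-44234151, plus strand), known as ENT1, encodes the related transporter that also takes up nucleoside drugs such as gemcitabine and cytarabine. Its control libraries spread from 56.5 to 85.7 CPM and its si45 libraries from 47.2 to 86.1 CPM. The si46 range of 51.7 to 60.7 CPM and the si47 range of 50.7 to 62.6 CPM overlapped the lower end of the controls. SLC29A1 had a log2 fold change of -0.24 over the siRNAs (SE 0.111, adjusted p = 0.215) and of -0.34 with si47 (adjusted p = 0.126) in edgeR's test, short of the threshold. A fit with the replicate number as a block called SLC29A1 lower with si47, by 0.33 (adjusted p = 0.0208 by edgeR). It did not call SLC29A1 over the siRNAs (adjusted p = 0.0520 by edgeR). SLC29A2 counts per SLC29A1 count were 1.24 ± 0.112 in controls, 0.987 ± 0.369 with si45, 0.991 ± 0.0957 with si46 and 0.851 ± 0.267 with si47 (SD, n = 4). Replicate 3 had the highest ratio in each siRNA group against TPX2. It was 1.13 with si46 and 1.25 with si47, inside the control range of 1.11 to 1.36, and above that range with si45.

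**Figure D3:**
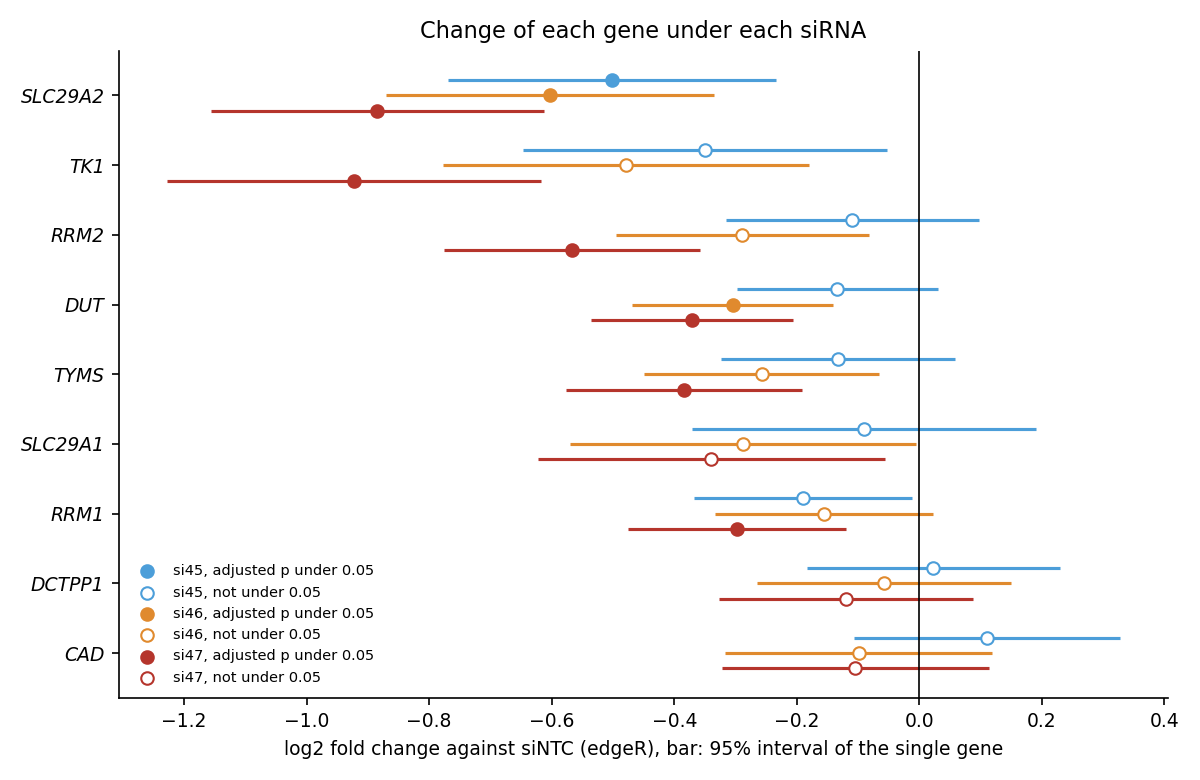
Log2 fold change against siNTC (x axis, edgeR) of each of the 9 genes (y axis) for si45, si46 and si47, with 95% intervals as bars. The genes are ordered by their averaged log2 fold change, which is not drawn and runs from -0.66 for SLC29A2 to -0.03 for CAD. The value of si47 is the lowest of the 3 siRNAs for all 9 genes.

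The siRNAs were also compared directly, over 9 genes and 3 pairs. Mean CPM was higher with si45 than with si47 for 9 of 9 genes and higher with si46 than with si47 for 9 of 9, by group means alone. Only RRM2 passed, between si45 and si47, with a log2 difference of 0.46 (SE 0.103, 95% interval from 0.25 to 0.67, adjusted p = 0.04997 by edgeR, just under the threshold). In that pair 0.169% of all genes were called. The same-numbered libraries of these 2 groups deviated together, and with the replicate number as a block RRM2 had a log2 difference of 0.46 (adjusted p = 2.09e-04) and TK1 passed too, at 0.59 (adjusted p = 0.00469), in edgeR's test. Without the block TK1 differed by 0.57 (adjusted p = 0.0913 by edgeR). The RRM2 call was lost without si45 replicate 2, 3 or 4, without si47 replicate 1, 2 or 4, with upper-quartile scaling, with limma-voom and in a fit of the 2 groups alone (adjusted p from 0.0565 to 0.173). No gene of the 9 was called between si45 and si46 or between si46 and si47, where 0.0282% and 0.0493% of all genes were. At an unadjusted p under 0.05 by edgeR, 1 and 3 of the 9 genes differed there, against 582 and 1034 of the 14193 genes tested. Without si47 replicate 3, TK1 differed between si46 and si47 by 0.67 (adjusted p = 0.0400 by edgeR). The residual TPX2 level had the same order of group means, highest with si45 and lowest with si47, and its part in these differences was not tested.

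For each of the 9, the genes with the most similar log2 CPM profile over the 16 libraries were listed by Pearson r, as a description, since these libraries share groups and scaling. TK1 was nearest to SSRP1 (r = 0.968), E2F1 (0.965) and CDC6 (0.954). TYMS was nearest to TOP2A (0.943) and CCNF (0.942), and RRM2 to CDC6 (0.934), GNG4 (0.915) and TCF19 (0.911). SLC29A2 was nearest to CDK5RAP2 (0.933), XRCC2 (0.929) and PIF1 (0.925). The profiles of DUT and RRM1 had lower highest values, 0.884 with DGAT1 and 0.884 with TUBB. CAD was nearest to TUBG2 (0.915), DCTPP1 to PRR14L (0.873) and SLC29A1 to DEAF1 (0.831). Within groups the 36 pairs of the 9 genes had a median r of 0.190, from -0.680 for TYMS and SLC29A1 to 0.793 for TYMS and TK1, and 23 pairs were above 0.

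Promoter letters of the genes that fell are shown for motifs often named with cell cycle genes. RefSeq windows on GRCh38.p14, from 250 bases before to 50 bases after each start, were at hand for 8 of the 9 genes (14 windows), SLC29A2 being the exception. Both strands were searched for an E2F site (TTTCCCGC, TTTCGCGC, TTTGCCGC or TTTGGCGC), the CCAAT box, the E-box CACGTG and the cell cycle homology region TTTGAA. Each stretch below is 5′ to 3′ along the gene's strand, with the match in capitals, on whichever strand it was found.
RRM2 CCAAT box, chr2:10122604-10122633, plus strand: ggcaaggcgcagCCAATgggaagggtcgga
RRM2 CCAAT box, chr2:10122634-10122663, plus strand: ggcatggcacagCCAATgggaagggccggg
RRM2 CCAAT box, chr2:10122661-10122690, plus strand: ggggcaccaaagCCAATgggaagggccggg
TK1 CCAAT box, reversed, chr17:78187112-78187141, minus strand: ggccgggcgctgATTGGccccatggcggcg
TK1 CCAAT box, reversed, chr17:78187081-78187110, minus strand: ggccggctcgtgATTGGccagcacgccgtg
TYMS E2F site, reversed, chr18:657603-657632, plus strand: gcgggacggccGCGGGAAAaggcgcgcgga
DUT E2F site, reversed, chr15:48332144-48332173, plus strand: gggcggggctgGCGGGAAAtttcggttttg
DUT E2F site, chr15:48332159-48332188, plus strand: gaaatttcggtTTTGGCGCgctccctgcgg
The E2F letters were found for 2 of the 8 genes, TYMS and DUT, and in 3.31% of all 35116 windows in the table (3.99% of genes). Both DUT matches lay in the last of its 4 windows, chr15:48331947-48332246, and its other windows held none of the motifs. CCAAT was found for 4 genes, RRM1, RRM2, TK1 and CAD, and in 34.6% of windows (39.7% of genes). RRM1, DUT and SLC29A1 held TTTGAA, which 15.2% of windows held (18.2% of genes). DCTPP1 and SLC29A1, neither of which was called, held CACGTG, which 7.26% of windows held (8.77% of genes). The letters are a description of these windows and were not tested against the expression changes.

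Other genes of nucleotide metabolism were described from lists of pathway members. In the averaged comparison 7.14% of all genes tested were called. Of 13 purine synthesis genes tested, 1 fell over the 3 siRNAs and none rose: GMPS, which makes GMP, by 0.53 on the log2 scale (SE 0.102, adjusted p = 9.34e-04 by edgeR), and the list's median was 0.0013. None of the 4 other pyrimidine synthesis genes was called in that comparison, with DHODH at 0.06 (adjusted p = 0.913 by edgeR) and UMPS at 0.07 (adjusted p = 0.688 by edgeR). Among 11 folate cycle genes tested, 1 fell: MTHFD1, which interconverts the folate forms that carry single carbons, by 0.37 (adjusted p = 0.00228 by edgeR). The median of the folate list was -0.04. Of 16 other genes of deoxynucleotide supply and control, RRM2B alone was called, with a list median of 0.02. SAMHD1, which hydrolyses deoxynucleotides, had a log2 fold change of -0.17 (adjusted p = 0.453 by edgeR), and DCK, the kinase for deoxycytidine, one of 0.17 (adjusted p = 0.791 by edgeR). In the averaged comparison no gene was called among 11 salvage genes, 2 other nucleoside transporters and 8 nucleotidases, whose medians were -0.10, 0.12 and -0.16. The 2 transporters went opposite ways, at -0.27 and 0.51, so their median describes neither. With si47 alone, edgeR also called PPAT (purine synthesis), CTPS1 (CTP synthesis), GGH (folate hydrolysis) and the nucleotidase-family gene NT5DC2 lower, by 0.34, 0.39, 0.60 and 0.30 on the log2 scale (adjusted p = 0.0350, 0.00509, 0.0140 and 0.0140). The folate gene ALDH1L2 rose there by 0.64 (adjusted p = 0.0145 by edgeR). These 5 genes were named after their values were seen. With si47, 9.74% of all genes tested were called. The calls in these lists were not tested against the shares over all genes.

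The lists of DNA replication genes and p53 responders also moved. Of 32 DNA replication genes, 15 fell over the siRNAs and 0 were higher. Among all genes tested in that comparison 3.53% were lower and 3.61% higher. The median log2 fold change of the 32 was -0.34, against -0.0011 for all genes. CDT1 fell by 0.56, MCM4 by 0.47 and MCM3 by 0.43, while PCNA was at -0.09 (adjusted p = 0.579 by edgeR). The number of replication genes called lower was 0 with si45, 5 with si46 and 19 with si47. Over all genes tested the share called lower had the same order, 0.324%, 1.25% and 4.83%. All 8 p53 responders listed rose, with a median of 1.57. Among them the cell cycle inhibitor CDKN1A rose by 2.58 (SE 0.235, adjusted p = 2.06e-05 by edgeR) and MDM2 by 1.25 (SE 0.122, adjusted p = 9.52e-07 by edgeR). RRM2B, which rose, is a known member of that response. Whether these movements have a part in the changes of the 9 genes was not tested.

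**Figure D4:**
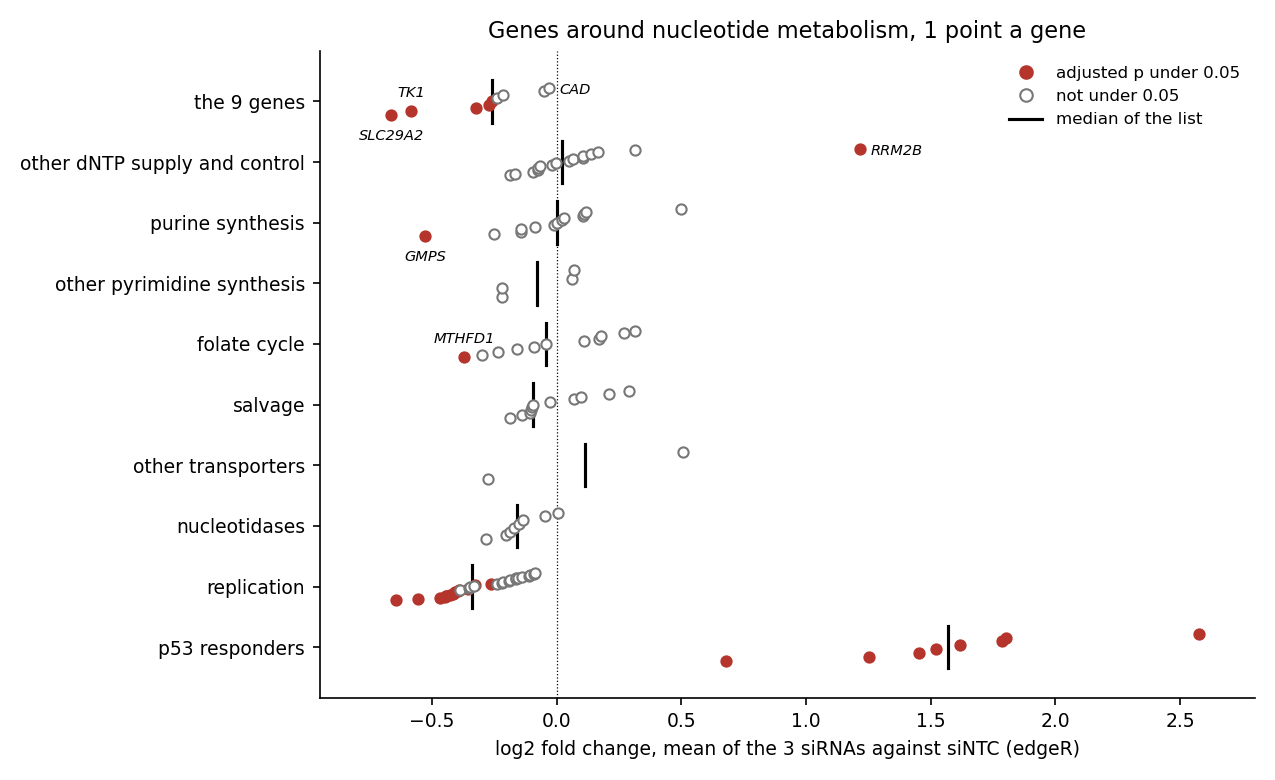
Averaged log2 fold change of the 3 siRNAs against siNTC (x axis, edgeR) for each gene tested in 10 lists (y axis), with filled points for an adjusted p under 0.05 and a bar at the list's median. The 9 genes and the replication list lie to the left of 0 (medians -0.26 and -0.34), the purine, folate and salvage lists lie around 0, and the p53 responders lie to the right (median 1.57).

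Overlapping genes and copies bear on how far a count belongs to a gene, since whether counting used strand is not given in the sources used here. ENOSF1 runs opposite to TYMS and covers its 3′ end, ZNF771 covers that of DCTPP1, and B4GAT1-DT that of SLC29A2. Over the 3 siRNAs ENOSF1 had a log2 fold change of 0.07 (adjusted p = 0.784), ZNF771 of -0.06 (adjusted p = 0.881) and B4GAT1-DT of 0.50 (adjusted p = 0.370), none past edgeR's threshold. TYMSOS, at 0.27 (adjusted p = 0.371), and DUT-AS1, at -0.43 (adjusted p = 0.356), did not pass edgeR's test either. DUT-AS1 overlaps 846 bases of DUT and does not cover its 3′ end. Without strand, reads of partners that cover a 3′ end cannot be told apart, so the values of TYMS, DCTPP1 and SLC29A2 carry that uncertainty. So does MTHFD1, whose 3′ end is covered on the opposite strand by ZBTB25 (1033 counts in 16 libraries, against 10677 for MTHFD1). TLDC2 covers that of SAMHD1 (5 against 3037 counts). The 13 annotated pseudogenes of the 9 genes held 34 counts in all 16 libraries together, 29 of them in DUTP6, and 9 held none.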

How the data were processed

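The authors deposited 1 table of raw read counts per Ensembl gene, whole numbers with no normalization, for 16 libraries of QuantSeq 3′ RNA-seq. Per the submitters' processing notes, FastQC 0.11.7, STAR 2.7.2b, edgeR 3.36.0, limma 3.50.3 and GRCh38 were used, with no role given. The counter, annotation, strand setting and treatment of multi-mapping reads are not given in the sources used here. Groups came from the siRNA in the labels. Symbols came from a gene name table (58434 rows matched) and positions from GENCODE v29 on GRCh38.

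Counts were fitted with edgeR 4.0.16 in R 4.3.3 (filterByExpr with a minimum count of 10 and total of 15, TMM, robust quasi-likelihood, 1 model of 4 group means). p-values were adjusted by Benjamini-Hochberg over the 14193 genes of each comparison, with a threshold of 0.05. The code was tested on simulated counts. PCR copies are not independent molecules, so counting error is a lower limit.

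The 9 genes and all lists were chosen with earlier results of these data known. Named were all 9 genes, RRM2B, DCK, SAMHD1, DHODH and UMPS whatever their values, up to 6 called genes a list and direction, overlapping genes and up to 3 most similar profiles. Some genes of the lists are not reported here. No 2 libraries of a group agreed within sampling noise (chi-square per degree of freedom of 4.36 to 9.80). Only between si45 and si47 did every same-numbered pair of libraries have an r of deviations above 0.1 (from 0.120 to 0.242). Over all pairs of groups these r ran from 0.0188 to 0.247, and 14 of 24 were above 0.1. Alternatives were RLE or upper-quartile factors, DESeq2 1.42.0, limma-voom (limma 3.58.1), no or a stricter count filter, a fit of only the groups compared, a replicate block and leaving out each library.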

Additional observations from a re-analysis of the deposited data

Results flagged for a closer look

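In 48 groups of 4 libraries (the 9 genes and a few named beside them), 2 held a library whose gap to the nearest other was, as a share of the group's range, above Dixon's 95% critical value, where chance gives about 2.4. DUT was at 296 CPM in si46 replicate 1, against 269 to 271 in the other 3 libraries. TPX2 was at 121 CPM in si45 replicate 3, against 79.4 to 85.1. The third result is a difference between siRNAs: the log2 fold change of RRM2 against siNTC was 0.46 higher with si45 than with si47 in the direct edgeR comparison (adjusted p = 0.04997, just under the threshold).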

How the results depend on the processing

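Of 1071 values of single genes under alternatives, 1002 kept their direction and their side of the threshold, 37 lost a call, 18 gained one and 14 changed sign with no call, each on leaving out 1 library. Their log2 fold changes then ran from -0.0984 to 0.0134 (DCTPP1) and -0.0707 to 0.0369 (CAD) in the averaged comparison, -0.0239 to 0.0861 (DCTPP1) and -0.246 to 0.0369 (SLC29A1) with si45, and -0.105 to 0.00772 (DCTPP1) with si46. RRM1 ran from -0.0932 to 0.0129 between si45 and si46, and CAD from -0.0643 to 0.0840 between si46 and si47. SLC29A2 and TK1 kept their averaged calls under all 23 alternatives. Leaving out 1 library at a time, the TPX2 log2 difference ran from -1.98 to -1.78 with si45, -2.08 to -1.88 with si46 and -2.22 to -2.13 with si47, at an exact permutation p of 0.0571, the smallest 3 against 4 libraries allow. The number of the 9 genes called then ran from 2 to 6 for the averaged comparison (2 without siNTC replicate 4, 3 without siNTC replicate 3), 0 to 1 for si45, 1 to 2 for si46, 0 to 3 between si45 and si47 and 0 to 1 between si46 and si47. Asking 10 counts of every library left 0 for si45. Between si45 and si47 the number was 0 with upper-quartile factors, limma-voom or only the groups compared, 3 with DESeq2 and 2 with no count filter. The cause of these changes was not tested.

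With the replicate block, 5 of the 9 genes were called with si46 and 2 between si45 and si47, and no other count of the 9 moved by over 1.5 times. Gained with si46 were TK1 (adjusted p = 0.00776), RRM2 (adjusted p = 0.0156) and TYMS (adjusted p = 0.0311) in edgeR's test. RRM1 in the averaged comparison (adjusted p = 0.00726 by edgeR) and SLC29A1 with si47 (adjusted p = 0.0208 by edgeR) were also gained. All genes called then numbered 1817 for the averaged comparison (1014 without the block), 577 for si45 (190), 1073 for si46 (482), 2198 for si47 (1382), and 33, 398 and 108 for si45 against si46, si45 against si47 and si46 against si47 (4, 24 and 7). Replicate numbers deviated together for every number in 1 of 6 pairs of groups, and 14 of 16 libraries were most alike one of their own number. With no count filter 356 genes were called for si45, and 14, 166 and 44 for the 3 pairs of siRNAs. DESeq2 gave 12, 154 and 44 for those pairs. For si46 against si47, a fit of only these groups gave 4. Leaving out 1 library gave as few as 629, 675 and 632 for the averaged comparison (without siNTC replicates 1, 3 and 4), 97 to 406 for si45, 252 to 532 for si46, 4 to 7 for si45 against si46, 10 to 147 for si45 against si47 and 2 to 23 for si46 against si47. A fit of only the groups compared is the main fit itself for the averaged comparison. With 4 libraries a group, and 5318159 or more counts a library, log2 changes near the standard errors given (0.0650 to 0.117 for the averaged comparison) could not be resolved.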
